A study of Homo sapiens with 4 samples.

Results

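The metallothionein genes MT2A, MT1X, MT1E, MT1F, MT1G and MT1M, the transcription factor gene MTF1 and the zinc exporter gene SLC30A1 were followed in U2OS cells, an established human osteosarcoma line. These 8 genes were picked by symbol from a table of 39519 genes, and all 8 have a row in it. After removal of ribosomal RNA, total RNA was sequenced in 2 sh-PURB libraries, in which doxycycline (5 µg/ml, 72 h) induced a short hairpin RNA against PURB, and in 2 sh-NC libraries of control cells given DMSO. Both groups grew in DMEM with fetal bovine serum and antibiotics. Doxycycline was given to the knockdown cells alone, so knockdown and drug cannot be told apart. Whether the libraries are from separate cultures, share a hairpin or come from a single clone is not in the labels, so the p-values reflect the spread among these libraries alone, and that spread may be technical.

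Metallothioneins are small cysteine-rich proteins that bind zinc, copper and cadmium through thiolate clusters. MTF1 is a zinc finger protein that senses zinc and activates metallothionein genes and SLC30A1 through short promoter sequences called metal response elements. SLC30A1 (ZnT1) sits mainly in the plasma membrane and carries zinc out of the cell. Doxycycline, like other tetracyclines, binds divalent metal ions, and the metallothionein genes are also known to respond to glucocorticoids and oxidants.

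The values are TPM, each gene's length-scaled share of all transcripts. This unit holds no read depth, which is therefore unknown here. The abundant structural RNAs RN7SL1, RN7SL2, RN7SK, RMRP and RPPH1 held 65.8% and 64.2% of TPM in sh-PURB, against 62.8% and 60.1% in sh-NC, and a larger share for them leaves a smaller one for the other genes together. In each library 13298 to 14207 genes reached 1 TPM. PURB itself, which the hairpin targets, had 2.46 and 2.69 TPM in sh-PURB, against 5.29 and 6.55 TPM in sh-NC, with a limma adjusted p of 0.102 over 14269 tested genes. In a fit of protein-coding genes alone, rescaled to the same sum, its limma adjusted p was 0.0379 and it was called lower. By exact permutation (two-sided), PURB had the smallest p that 2 libraries against 2 allow, which is above 0.05. The bone label was checked against osteoblast markers. SPARC was at 219.5 and 261.6 TPM in sh-PURB and 254.1 and 235.0 TPM in sh-NC, RUNX2 was at 1.92 to 3.92 TPM over all libraries, and SP7, ALPL, BGLAP and IBSP were below 0.3 TPM in all of them. COL1A1 varied within each group, at 9.53 and 21.6 TPM in sh-PURB and 13.6 and 39.7 TPM in sh-NC, and COL1A2 was at 0.0803 to 0.509 TPM. The leukocyte and red cell markers CD3E, CD14 and HBB stayed below 0.6 TPM and PTPRC was at 0.651 to 1.63 TPM, while the epithelial list was mixed. KRT8 and KRT18 were at 84.2 to 114.8 TPM, EPCAM and KRT14 at 1.42 to 2.44 TPM, and KRT5, CDH1 and KRT19 at 0.0563 to 1.02 TPM.

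The 6 metallothionein members lie in one cluster on chromosome 16 (GRCh38, GENCODE annotation), which spans 56565049 to 56684196 and holds 16 of the 18 family genes listed, pseudogenes included. MT2A lies at 56608199 to 56609497, MT1E at 56625475 to 56627112, MT1M at 56632233 to 56633986, MT1F at 56657694 to 56660698 and MT1X at 56682424 to 56684196, all on the plus strand, and MT1G lies at 56666731 to 56668065 on the minus strand. MTF1 (37809567 to 37859620) and SLC30A1 (211571568 to 211578742) lie on the minus strand of chromosome 1. Metallothionein coding sequences are so alike that reads can be hard to assign. Those of MT2A and MT1X are shown because both genes were lower in the knockdown libraries. Each has 186 bases, 61 codons before the stop, of which 20 encode cysteine, and capitals mark the 14 bases at which they differ.
MT2A: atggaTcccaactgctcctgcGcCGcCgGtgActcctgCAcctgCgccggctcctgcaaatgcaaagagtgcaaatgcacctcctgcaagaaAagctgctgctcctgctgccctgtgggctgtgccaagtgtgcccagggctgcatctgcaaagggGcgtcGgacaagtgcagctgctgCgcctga
MT1X: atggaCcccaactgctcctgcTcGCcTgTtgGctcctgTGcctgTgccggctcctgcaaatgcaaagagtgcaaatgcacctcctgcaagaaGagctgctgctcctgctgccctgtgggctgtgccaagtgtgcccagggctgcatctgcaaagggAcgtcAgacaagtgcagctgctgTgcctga
The coding sequence of MT1E differs from that of MT2A at 14 bases and from that of MT1X at 17. The whole transcripts are less alike. Of the distinct 31-base stretches in annotated transcripts, 7.25% of those of MT2A, 15.6% of those of MT1E and 19.8% of those of MT1X occur in transcripts of another gene on either strand, and none of those of SLC30A1 do. MT2A and MT1E share only 2 such stretches, and MT2A and MT1X share 54. For MT1X most of the shared stretches (292 of 362) occur in AC026461.1, an annotated gene that overlaps it on the same strand. AC026461.1 has no value under that name among the TPM used here. MT1X shares the most sequence of these 3 genes, but mostly with AC026461.1, and its next largest partner was MT1G with 77 stretches.

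Metal response elements share a core of 7 bases, searched here as TGCACNC and TGCGCNC on both strands. In the 250 bases before the gene start given by RefSeq (GRCh38.p14), the window of MT2A held 7 cores, that of MT1X 4, that of SLC30A1 1 and that of MTF1 none. At least 1 core occurs in 24.8% of 35116 promoter windows of this length, at least 4 in 0.370% and at least 7 in 0.0313%. Of the 8 genes these 4 matched the promoter table; MT1E, MT1F, MT1G and MT1M did not. These RefSeq starts differ from the GENCODE positions given above. By GENCODE, the window of MT2A lies inside the gene, and those of MT1X and MTF1 reach into their genes. That of SLC30A1 ends some way before its gene. The windows of the genes with a core follow, 5′ to 3′ on the gene's strand and ending at its RefSeq start, with the cores on either strand in capitals.
MT2A, chr16:56608334-56608583, plus strand: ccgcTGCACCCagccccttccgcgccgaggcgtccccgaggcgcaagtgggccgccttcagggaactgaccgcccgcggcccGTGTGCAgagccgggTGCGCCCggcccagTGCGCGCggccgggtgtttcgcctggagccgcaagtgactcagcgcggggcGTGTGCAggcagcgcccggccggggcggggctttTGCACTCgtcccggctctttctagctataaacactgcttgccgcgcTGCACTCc
MT1X, chr16:56682220-56682469, plus strand: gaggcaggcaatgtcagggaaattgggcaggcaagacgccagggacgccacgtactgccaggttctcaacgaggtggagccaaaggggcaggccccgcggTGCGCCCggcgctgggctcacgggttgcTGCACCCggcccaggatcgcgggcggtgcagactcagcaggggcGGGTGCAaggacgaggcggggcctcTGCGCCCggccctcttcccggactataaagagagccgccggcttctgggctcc
SLC30A1, chr1:211579162-211579411, minus strand: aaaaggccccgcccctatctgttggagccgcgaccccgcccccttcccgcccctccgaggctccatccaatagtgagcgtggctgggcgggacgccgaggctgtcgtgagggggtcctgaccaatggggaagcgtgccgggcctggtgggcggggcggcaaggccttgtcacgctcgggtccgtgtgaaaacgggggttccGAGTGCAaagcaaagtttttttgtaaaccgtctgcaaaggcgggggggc
These matches describe letters only and do not show binding by MTF1.

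**Figure D1:**
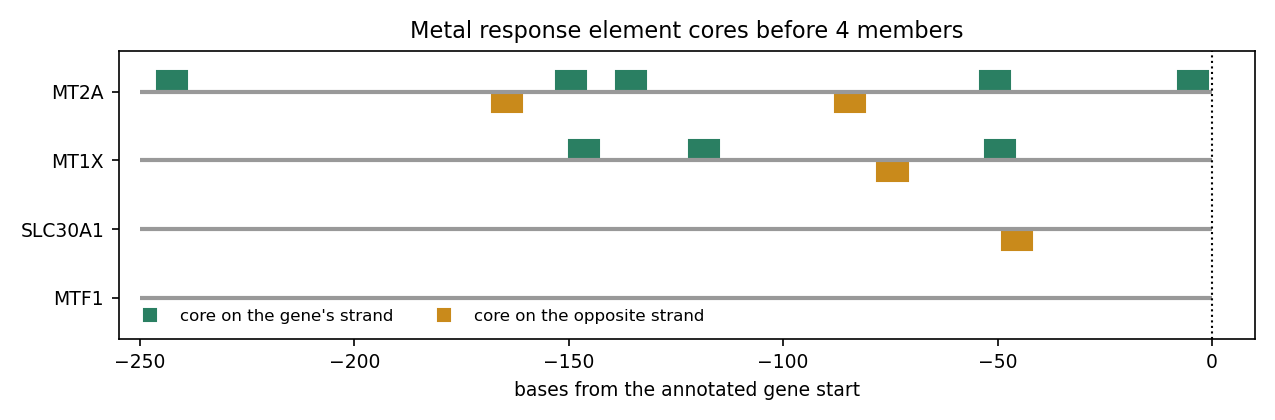
Positions of the metal response element core in the 250 bases before the RefSeq start of 4 genes, in bases from the start (dotted line). Boxes above a line are cores on the gene's strand and boxes below it cores on the opposite strand, 7 for MT2A, 4 for MT1X, 1 for SLC30A1 and none for MTF1.

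MT2A, the main metallothionein of most human cells, was lower in the knockdown libraries. It stood at 181.7 and 124.2 TPM in sh-PURB, against 247.3 and 267.7 TPM in sh-NC. Both sh-PURB libraries lay below both sh-NC libraries, and the sh-PURB libraries differed from each other by more than the controls did (153.0 ± 40.6 against 257.5 ± 14.4 TPM, mean ± SD, n = 2 each). The sh-PURB mean was 59.4% of the sh-NC mean. The difference in log2(TPM + 1) was -0.77 with a standard error of 0.19 and a 95% interval of -1.27 to -0.27, not adjusted for the number of genes. Its unadjusted limma p was 0.0110, and it missed the threshold of 0.05 over all genes (limma adjusted p = 0.177). A lower level in bulk RNA can come from fewer cells with the transcript or from less of it per cell, and these cannot be told apart. Of the tested genes, 4.53% had a more negative difference. Leaving out sh-PURB replicate 2 gave a difference of -0.50, and leaving out sh-PURB replicate 1 gave -1.04. Among protein-coding genes rescaled to the same sum, which leaves out the structural RNAs that were higher in sh-PURB, the difference was -0.72. It was smaller under the other scalings, at -0.66 after median-ratio rescaling. With TPM recomputed without mitochondrial genes and genes above 1% of a library, it was -0.62.

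MT1X, a metallothionein of the same cluster, was lower by a smaller amount. It stood at 28.4 and 26.8 TPM in sh-PURB, against 38.9 and 35.8 TPM in sh-NC. The groups did not overlap, and the libraries of a group lay close together (27.6 ± 1.08 against 37.4 ± 2.18 TPM, mean ± SD, n = 2 each), with sh-PURB at 73.9% of sh-NC. The difference in log2(TPM + 1) was -0.42 with a standard error of 0.11 and a 95% interval of -0.70 to -0.14. The unadjusted limma p was 0.0119 and the limma adjusted p 0.181. With TPM recomputed without mitochondrial genes and genes above 1% of a library, the difference was -0.28, and among rescaled protein-coding genes it was -0.38. The unadjusted limma p was above 0.05 with recomputed TPM (0.0822), after median-ratio rescaling (0.106) and without sh-NC replicate 1 (0.103).

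MT1E had about the same level as MT2A in control cells but not in knockdown cells. It stood at 253.0 and 230.7 TPM in sh-PURB, against 231.6 and 279.5 TPM in sh-NC. The groups overlapped, and each sh-PURB value lay within or within 1 TPM of the range of the controls. The difference in log2(TPM + 1) was -0.074 with a standard error of 0.12 (limma adjusted p = 0.829), and its 95% interval of -0.39 to 0.25 covers ratios of 0.761 to 1.19. The sign of this difference turned with the scaling, to 0.035 after median-ratio rescaling and 0.078 with recomputed TPM.

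The other metallothioneins were at or near 0 in every library. MT1F and MT1G were listed at 0 in all 4 libraries, and MT1M was listed at 0.0227 TPM in sh-PURB replicate 1 and at 0 in the other libraries. A listed 0 can be a failed estimate where transcripts are alike, which was not tested, and no fold is given for these genes. Of their distinct 31-base stretches, 3.25% for MT1F, 23.3% for MT1G and 24.1% for MT1M occur in transcripts of another gene. Beyond the members, MT1A, MT1B, MT1H, MT1HL1, MT3, MT4, MT1DP, MT1IP, MT1CP and MT1XP1 were also listed at 0 throughout. The pseudogene MT1JP was at 0.230 and 0.307 TPM in sh-PURB and 0.406 and 0.327 TPM in sh-NC, and the pseudogene MT1L reached at most 0.103 TPM. Of 18 family genes, 12 were at 0 in all libraries and 3 were tested, so the metallothionein RNA measured here was almost wholly that of MT2A, MT1E and MT1X.

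**Figure D2:**
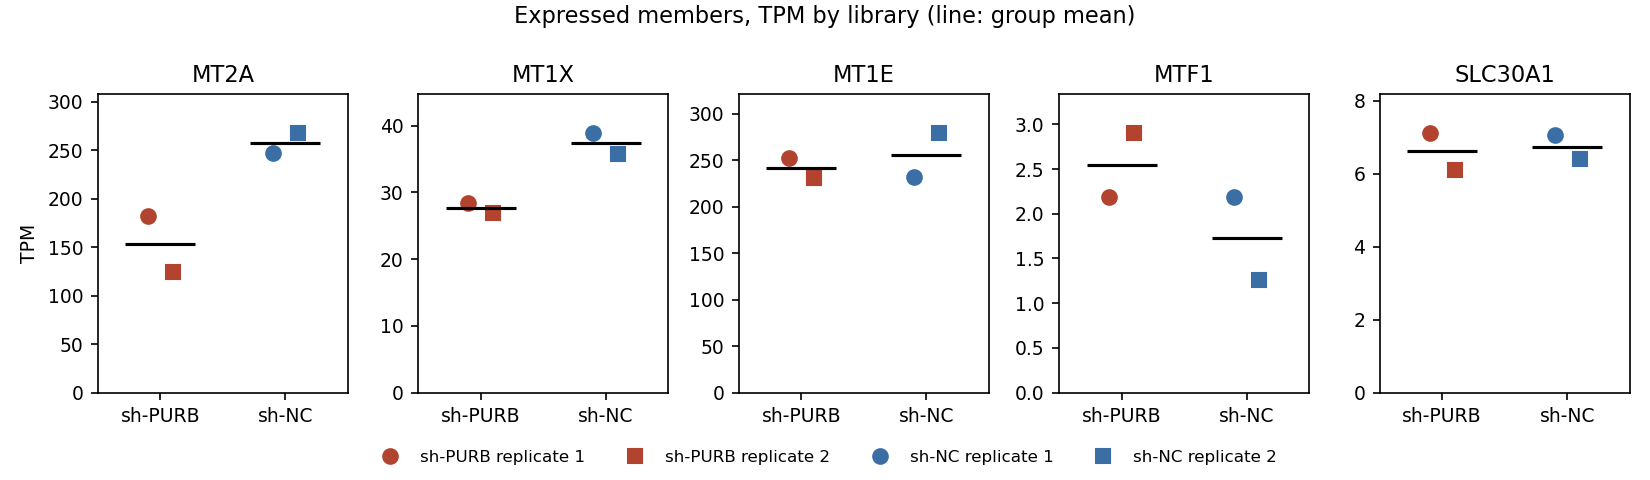
TPM of the 5 members above 1 TPM, 1 panel a gene with its own axis from 0, in 2 sh-PURB and 2 sh-NC libraries, with a line at each group mean. The sh-PURB points lie below the sh-NC points for MT2A and MT1X, mix with them for MT1E and SLC30A1, and lie above them for MTF1, with the replicate 1 libraries of the groups nearly equal.

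The family was summed because reads can be split among near copies. The sum over the 18 genes was 463.2 and 382.2 TPM in sh-PURB, against 518.2 and 583.5 TPM in sh-NC, a ratio of means of 0.767. This sum was 0.187% and 0.152% of all protein-coding TPM in sh-PURB, against 0.205% and 0.222% in sh-NC, so it was lower on that scale as well. MT2A supplied 39.2% and 32.5% of the sum in sh-PURB, against 47.7% and 45.9% in sh-NC. MT1E supplied 54.6% and 60.4% in sh-PURB, against 44.7% and 47.9% in sh-NC, and the share of MT1X overlapped between the groups (6.12% and 7.02% against 7.50% and 6.14%).

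Ratios within a library do not depend on how the libraries are scaled. MT2A over MT1E was 0.718 and 0.538 in sh-PURB, against 1.07 and 0.958 in sh-NC, so the groups did not overlap. MT1X over MT1E was 0.112 and 0.116 in sh-PURB, against 0.168 and 0.128 in sh-NC, without overlap. It shares its denominator with the first ratio, so these are not separate observations. MT2A over MT1X overlapped, at 6.41 and 4.63 in sh-PURB against 6.36 and 7.48 in sh-NC. These ratios carry no test, the values of MT1X over MT1E nearly touch, and none of them says that MT1E RNA was unaltered.

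**Figure D3:**
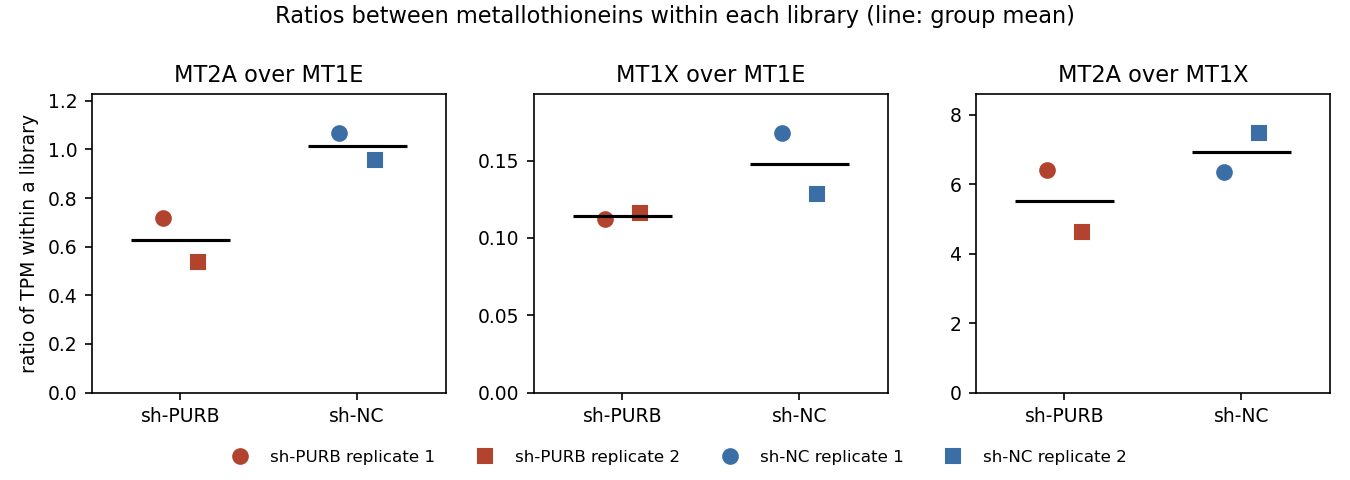
Ratio of the TPM of 2 metallothioneins within each library, for 3 pairs, in sh-PURB and sh-NC, with a line at each group mean. The sh-PURB ratios to MT1E lie below the sh-NC ratios for both MT2A (mean 0.628 against 1.01) and MT1X (mean 0.114 against 0.148), and the groups overlap for MT2A over MT1X.

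MTF1, the metal-sensing activator, was low throughout. It stood at 2.19 and 2.90 TPM in sh-PURB, against 2.18 and 1.26 TPM in sh-NC. Both sh-PURB libraries were higher than both controls, but sh-PURB replicate 1 and sh-NC replicate 1 were nearly equal, and sh-NC replicate 2 held most of the difference. The difference in log2(TPM + 1) was 0.39 with a standard error of 0.25 and a 95% interval of -0.26 to 1.05 (limma adjusted p = 0.531). It was 0.15 without sh-NC replicate 2. AL929472.4 is annotated on the strand opposite MTF1. Whether reads were assigned by strand is not stated.

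SLC30A1, which carries zinc out of the cell, was at 7.11 and 6.11 TPM in sh-PURB, against 7.06 and 6.41 TPM in sh-NC. The groups overlapped, with a ratio of means of 0.981. The difference in log2(TPM + 1) was -0.026 with a standard error of 0.15 (limma adjusted p = 0.961), and its 95% interval of -0.42 to 0.36 covers ratios of 0.750 to 1.29. Its sign turned with the scaling, as the value of 0.12 with recomputed TPM shows. The lower values of MT2A and MT1X thus stood beside SLC30A1 values that did not separate the groups. No test compared these genes with each other.

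In all, 5 of the 8 members reached the level at which genes were tested, and none was called by limma, where 0.287% of all tested genes were (0.203% lower and 0.0841% higher in sh-PURB). At an unadjusted p under 0.05, 2 members were lower (MT2A, and MT1X in most but not all settings) and none was higher, where 9.53% of all tested genes were lower and 5.77% higher. In the same 2 members both sh-PURB libraries lay below both controls, as they did in 29.3% of all tested genes, and in MTF1 both lay above, as in 18.6%. By level, the tested members ordered as MT1E and MT2A, which were not separated in control cells, then MT1X, SLC30A1 and MTF1, with no overlap of values between these last 3 or with the first pair. In a fit restricted to protein-coding genes, whose TPM were rescaled to the same sum in each library, 1.80% of 13874 genes were called lower and no member was. MT2A came nearest in that fit, with a difference of -0.72 and a limma adjusted p of 0.0714.

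**Figure D4:**
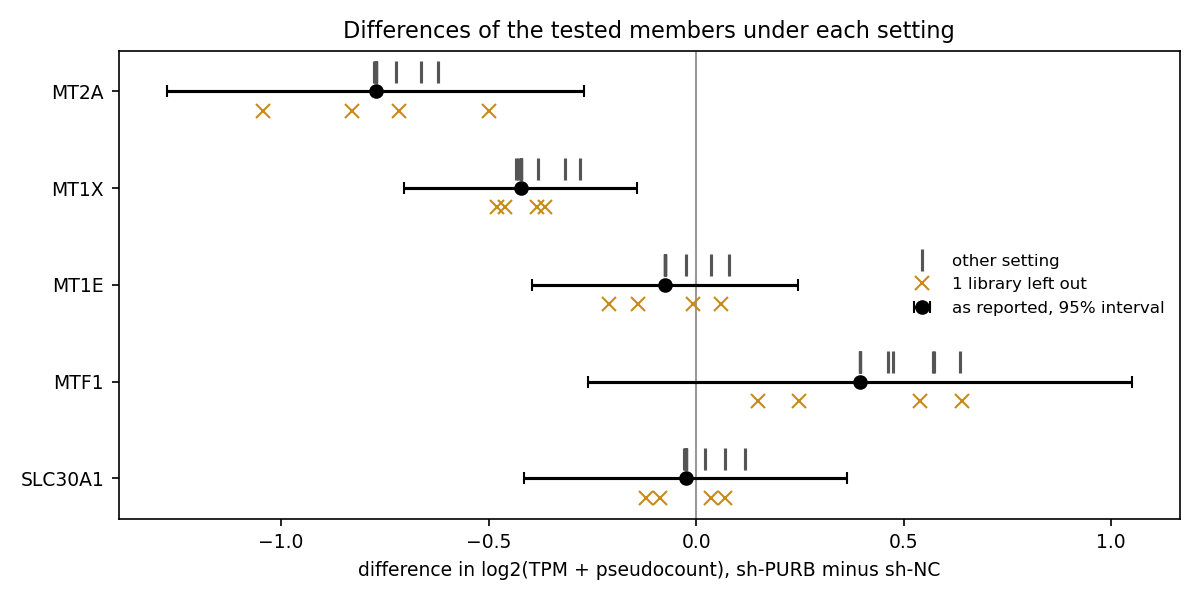
Difference between sh-PURB and sh-NC in log2(TPM + pseudocount) for the 5 tested members, with the reported value and its 95% interval (black), the other settings (grey) and the fits without 1 library (gold crosses). All values for MT2A and MT1X lie below 0 and all for MTF1 above 0, while those for MT1E and SLC30A1 fall on both sides.

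Genes whose pattern over the 4 libraries was nearest to that of a member were found among 11929 other tested protein-coding genes, by the Euclidean distance between centred log2(TPM + 1) values. Nearest to MT2A were IGF2BP3, BCAR3, ACOX2, IRF8 and HARS2, at distances of 0.134 to 0.200 where the median gene was at 0.893. MT1X ranked 381 and MT1E 3133 in that list. The 5 genes nearest to MT2A were at only 1.43 to 6.82 TPM, with limma adjusted p-values of 0.179 to 0.344. Adding 1 to TPM understates the change of such low genes, so their likeness to MT2A holds on this scale alone. Nearest to MT1X were FURIN, SUMO2, ITPK1, ILRUN and CSNK1G2 (0.0389 to 0.0491), and nearest to SLC30A1 were CLCN5, TMEM53, SOD1, UBL5 and DDX3X (0.0134 to 0.0199). In the list of MT1X, MT2A ranked only 5900 and MT1E 4491. The distance of 0.508 between MT1X and MT2A was about that of the median gene from MT1X (0.510). In the list of SLC30A1, MT2A ranked 10815, MT1X 6362 and MT1E 3656. With 4 libraries such likeness is only a description, and many genes share any one pattern.

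Zinc is moved across membranes by the SLC30 exporters and the SLC39 importers. Of 10 SLC30 genes 7 were tested, none was called by limma, and their median difference was -0.026, against -0.057 for all tested genes. SLC30A9, linked to mitochondrial zinc, was at 23.1 and 24.1 TPM in sh-PURB, against 32.8 and 29.8 TPM in sh-NC (limma unadjusted p = 0.0180 and adjusted p = 0.219). It was the only exporter at an unadjusted limma p under 0.05, where 9.53% of all tested genes were lower. SLC30A3, which loads synaptic vesicles with zinc, was at 0.519 and 0.588 TPM against 1.00 and 1.44 TPM (limma adjusted p = 0.393), and it too was tested only because both sh-NC libraries reached 1 TPM. SLC30A4 and SLC30A6 had adjusted p-values of 0.720 and 0.882 in limma. Of 14 SLC39 genes 11 were tested and none was called, with 0 at an unadjusted p under 0.05. Their median difference was 0.17, with 7 above 0 and 4 below, where 58.4% of all tested genes lay below 0. SLC39A10, a plasma membrane zinc importer, was at 15.5 and 13.6 TPM in sh-PURB, against 11.5 and 11.5 TPM in sh-NC. SLC39A6, its close relative, was at 13.0 and 10.7 TPM against 10.2 and 8.52 TPM. SLC39A14, which also carries iron and manganese, was at 31.8 and 22.6 TPM against 22.3 and 20.6 TPM. These 3 importers were at 1.27 times the control mean, with limma adjusted p-values of 0.346 to 0.504. They are among the 5 of 11 tested SLC39 genes in which both sh-PURB libraries lay above both controls, as in 18.6% of all tested genes, and in 1 of the 11 both lay below, as in 29.3%. SLC39A11 was at 5.42 and 5.71 TPM in sh-PURB and at 5.70 and 17.6 TPM in sh-NC, a difference held by sh-NC replicate 2.

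Copper genes went both ways. Of 17 listed, 16 were tested and limma called none over all genes, with 7 above 0 and 9 below and a median of -0.020. CP and ATP7A were lower at an unadjusted limma p under 0.05, as were 9.53% of all tested genes. CP, which encodes the copper oxidase ceruloplasmin, had the smallest p. It stood at 0.291 and 0.204 TPM in sh-PURB, against 1.94 and 1.83 TPM in sh-NC (limma adjusted p = 0.0987). Among protein-coding genes alone its limma adjusted p was 0.0119, and it was called lower, as were 1.80% of the genes in that fit. It reached 1 TPM in the sh-NC libraries alone and so was tested only through the group in which it was high. ATP7A, a copper-exporting ATPase, was at 2.85 and 3.57 TPM against 5.37 and 5.38 TPM (limma adjusted p = 0.208). The copper chaperone ATOX1, which hands copper to ATP7A, was at 41.5 and 34.2 TPM in sh-PURB, against 30.6 and 30.4 TPM in sh-NC (limma adjusted p = 0.379), and the mitochondrial factor COX11 was at 9.62 and 7.64 TPM against 10.5 and 12.3 TPM. Among 14 genes of manganese, magnesium and other divalent ion transport, 11 were tested, none was called and none had an unadjusted limma p under 0.05. The 4 with the smallest p, TRPM7, CNNM4, SLC11A2 and ATP13A2, had limma adjusted p-values of 0.431 to 0.608.

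Heavy metals also induce heat shock and oxidant defence genes. Of 12 heat shock genes 11 were tested and limma called none, with a median of 0.076. At an unadjusted limma p under 0.05, 1 gene, DNAJB1, was lower, as were 9.53% of all tested genes. DNAJB1, a cochaperone of HSP70, was at 20.1 and 18.6 TPM in sh-PURB, against 24.9 and 25.7 TPM in sh-NC (limma adjusted p = 0.230). The inducible HSP70 genes HSPA1A (17.9 and 18.5 against 20.4 and 25.2 TPM) and HSPA1B (23.7 and 25.1 against 28.5 and 31.02 TPM) had no overlap between groups. Their limma adjusted p-values were 0.401 and 0.346, and they are near-identical copies and uncertain one by one. In 5 of the 11 tested heat shock genes both sh-PURB libraries lay below both controls and in 2 both lay above, where the shares of all tested genes were 29.3% and 18.6%. The mitochondrial chaperone HSPD1 was at 194.1 and 150.5 TPM in sh-PURB, against 138.1 and 141.9 TPM in sh-NC (limma adjusted p = 0.418). Of 13 oxidant defence genes 12 were tested, 10 lay below 0, as did 58.4% of all tested genes, and the median was -0.18. Over all genes limma called none. At an unadjusted limma p under 0.05 NQO1 was lower and SLC7A11 higher, where 9.53% of all tested genes were lower and 5.77% higher. NQO1, a quinone reductase, was at 33.2 and 34.9 TPM in sh-PURB, against 56.2 and 55.0 TPM in sh-NC (limma adjusted p = 0.0728). Among protein-coding genes alone its limma adjusted p was 0.0281 and it was called lower, as were 1.80% of those genes. The cystine transporter SLC7A11 went the other way, at 10.8 and 8.34 TPM against 3.80 and 5.56 TPM (limma adjusted p = 0.169). OSGIN1 was at 2.44 and 2.999 TPM against 3.76 and 4.54 TPM, and GCLM, a subunit of the enzyme that starts glutathione synthesis, was at 3.54 and 4.26 TPM against 5.30 and 5.53 TPM. These last 2 genes had limma adjusted p-values of 0.330 and 0.346.

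Glucocorticoid-responsive genes were listed because MT2A is one. The list was chosen with earlier results of these data known, so its counts are a description only. Of 12 listed genes 9 were tested, and 7 of these lay below 0 with a median of -0.31, against 58.4% of all tested genes. None was called over all genes by the limma fit, while 4 were lower at an unadjusted limma p under 0.05, as were 9.53% of all tested genes. ERRFI1, a feedback inhibitor of the EGF receptor, was at 16.7 and 12.4 TPM in sh-PURB, against 46.9 and 51.9 TPM in sh-NC (limma adjusted p = 0.0517). The kinase gene SGK1 was at 1.80 and 1.78 TPM in sh-PURB, against 6.03 and 5.87 TPM in sh-NC (limma adjusted p = 0.0552). Both were called lower among protein-coding genes alone (limma adjusted p = 0.00384 and 0.0105), as were 1.80% of the genes in that fit. FKBP5, a cochaperone of the receptor, was at 2.15 and 2.17 TPM against 3.42 and 4.29 TPM (limma adjusted p = 0.230), and the clock gene PER1 at 2.02 and 3.01 TPM against 3.70 and 4.95 TPM (limma adjusted p = 0.321). The 2 tested genes above 0 were TSC22D3 and DUSP1, at 1.22 and 1.14 times the control mean (limma adjusted p = 0.650 and 0.832). ERRFI1, SGK1 and PER1 are regulated by growth factor and other signals too, and the list does not separate these.

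Regulators linked to metal-responsive transcription had a median of -0.19 over 9 tested genes, MTF1 included. None was called by limma, and MTF2 alone had an unadjusted limma p under 0.05, where 9.53% of all tested genes were lower. MTF2, named for binding a metal response element and known as a Polycomb-associated protein, was at 9.71 and 9.49 TPM in sh-PURB, against 13.2 and 14.1 TPM in sh-NC (limma adjusted p = 0.188). ZNF658, a zinc finger protein linked to zinc-dependent repression, was at 3.46 and 4.14 TPM against 5.12 and 5.67 TPM (limma adjusted p = 0.334). ZNF143 and USF1 had limma adjusted p-values of 0.373 and 0.480.

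**Figure D5:**
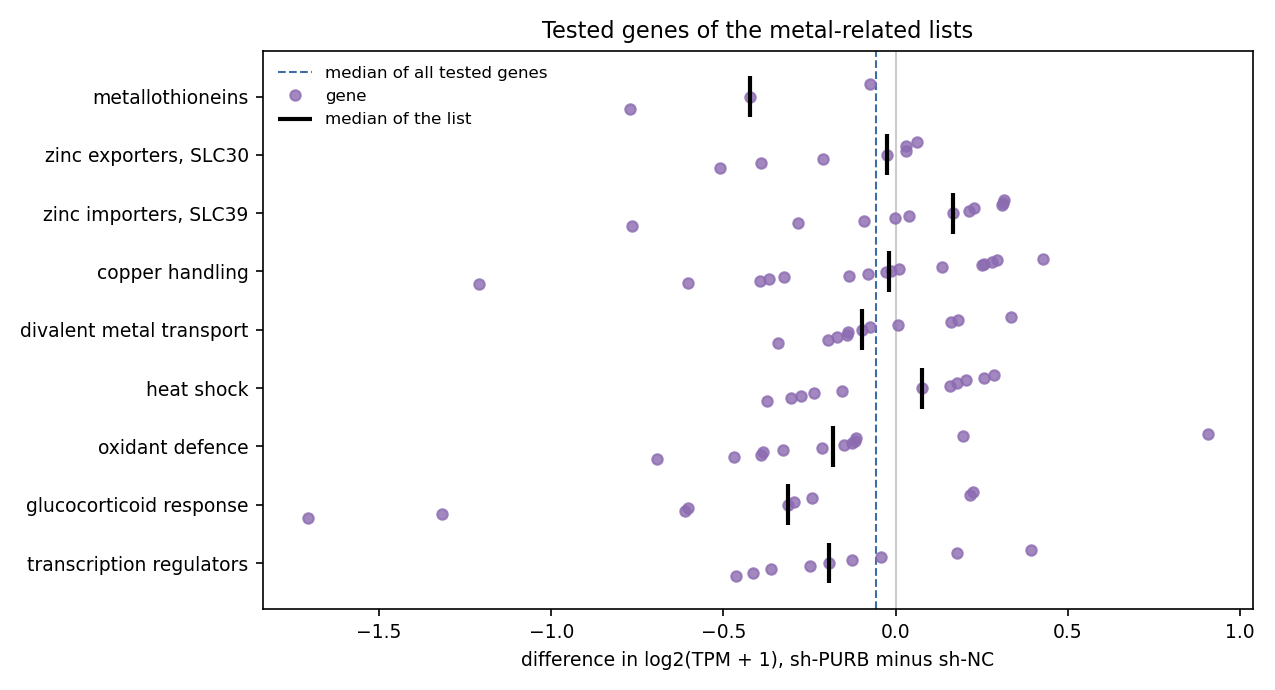
Difference in log2(TPM + 1) between sh-PURB and sh-NC for each tested gene of 9 lists, with the list median (black bar) and the median of all tested genes (dashed line at -0.057). Points are spread vertically only to keep them apart. The 3 tested metallothioneins lie below 0, of which MT1E changes sign under other scalings, and most tested SLC39 genes (7 of 11) lie above 0.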

How the data were processed

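Gene-level TPM of 4 U2OS libraries were used. TPM were deposited by the authors per gene symbol. Tools listed in the submitters' processing notes, without roles, are kallisto 0.44.0, bcl2fastq, DESeq2 and sleuth; both a human (GRCh38) and a mouse (GRCm38) build are listed. The strand setting and annotation release are not given in the sources used here. The 4 tables of single libraries equal the columns of the table of all libraries. A row with a blank name (0.921% to 1.66% of a library) was left out.

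Samples were grouped by title. Genes with at least 1 TPM in at least 2 libraries (14269) were compared as log2(TPM + 1), which understates the change of low genes, in limma 3.58.1 under R 4.3.3 with an intensity trend; p-values were adjusted by Benjamini-Hochberg over these genes. Residual degrees of freedom were 2 and prior ones 2.92. The steps were tested on simulated data. Ratios are of mean TPM. Members, lists and tests were chosen with earlier results of these data known. Besides the members, the 4 genes of smallest unadjusted p in each list and the remaining metallothioneins were named. Gene types and positions came from GENCODE v29, in which 36727 symbols matched directly, 2715 through other names and 77 not at all. Promoter sequences came from RefSeq (GRCh38.p14) and coding sequences from GENCODE transcripts. Alternatives were no filter or one at TPM 5, pseudocounts of 0.5 and 0.1, limma without trend or with robust moderation, a replicate block, median-ratio rescaling, TPM recomputed without mitochondrial genes and genes above 1 percent of a library, protein-coding genes alone, and leaving out each library. Figures used Python 3.11.15 and matplotlib 3.10.9.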

Additional observations from a re-analysis of the deposited data

How the results depend on the processing

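MT2A and MT1X were lower in all 14 alternative settings and passed the threshold in none, with limma adjusted p-values of 0.0714 to 0.352 and 0.117 to 0.569. Without single libraries the difference ran from -1.04 to -0.50 for MT2A and from -0.48 to -0.36 for MT1X. MTF1 was higher in all 13 settings in which it was tested (0.15 to 0.64 without single libraries). MT1E changed sign after median-ratio rescaling (0.035) and with recomputed TPM (0.078), and ran from -0.21 to 0.061 without single libraries. SLC30A1 did so among protein-coding genes alone (0.021), with recomputed TPM (0.12) and after median-ratio rescaling (0.071), and ran from -0.12 to 0.070 without single libraries. Recomputed TPM moved the median of all tested genes from -0.057 to 0.063. The family sum ratio kept below 1, at 0.796 to 0.856 under the 3 other scalings and 0.694 to 0.841 without single libraries.

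The count of called genes, 41 (12 higher, 29 lower), was not stable. It was 0 with a pseudocount of 0.1, with no filter and in limma without trend, with 2155, 3031 and 2089 genes at an unadjusted limma p under 0.05. It was 121 with the filter at TPM 5, 125 with robust moderation, 84 after median-ratio rescaling (32 higher, 52 lower), 176 with recomputed TPM (99 higher, 77 lower) and 407 among protein-coding genes alone. Without single libraries it ran from 0 to 155, and each such fit has only 1 residual degree of freedom. The replicate block gave 118 calls and limma adjusted p-values of 0.133 for MT2A and 0.117 for MT1X. With 2 pairs the numbers are not shown to pair the libraries; deviations of same-numbered libraries correlated at 0.193 across genes. TPM keep no depth, so no counting error can be given.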
